A study of Mus musculus with 3 samples.

Results

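Zeb1, Zeb2, Snai1, Snai2, Twist1, Twist2 and Prrx1 encode transcription factors of mesenchymal cells, and the peaks that 2 basic leucine zipper factors, CEBPG and ATF4, left around these 7 genes are described here. A peak was counted when it overlapped the RefSeq span of a gene or the 350 kb on either side of it, in the mouse build mm10. This gave 92 of the 25419 CEBPG peaks and 6 of the 2642 ATF4 peaks. The genes were chosen with results of these peak lists in view, Zeb2 because it is the nearest protein-coding gene to a CEBPG peak of score 3100, a value shared by 38 peaks, and the peaks were selected on their positions. The positions and scores below are therefore a description without a test. The cells were primary fibroblasts from C57BL/6 wild-type mouse embryos at E13.5, passaged a few times. They were cultured for 24 hours and then deprived of amino acids (AAD) for 3 hours before fixation and chromatin immunoprecipitation. There was 1 library per antibody, with an antiserum against the C-terminal end of CEBPG or with the ATF4 antibody C-20, and both received the same deprivation. The library made with a GFP antibody was not analysed here. With no unstarved cells among these groups, no value says whether a peak depends on the deprivation. With 1 library for each factor, no value carries an error between cultures. Peak lists hold no expression values, so the fibroblast label could not be set against marker genes.

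ATF4 is the transcription factor whose translation increases when cells lack amino acids, and CEBPG is a C/EBP family protein that pairs with it on DNA. Of the 7 genes, Zeb1 and Zeb2 encode zinc finger and homeodomain repressors, and Snai1 (Snail) and Snai2 (Slug) encode zinc finger repressors. All 4 proteins bind E-boxes in genes such as Cdh1, which encodes the epithelial adhesion protein E-cadherin, and are known for their role in epithelial-mesenchymal transition. Twist1 and Twist2 encode basic helix-loop-helix factors of the mesoderm, and Prrx1 encodes a homeodomain factor of limb and craniofacial mesenchyme. Genes of this kind are often controlled by enhancers far from their promoters.

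None of the 98 peaks lay on a promoter. Promoter here means the RefSeq window from 250 bases before a transcription start to 50 bases after it (build GRCm38.p6, the same coordinates as mm10), and the statement covers every listed promoter of any gene in the windows. In the whole lists, 1.42% of CEBPG peaks and 1.51% of ATF4 peaks overlapped such a window. Of the 7 genes, 5 had promoters in the table, 8 in all because Zeb2 has 4 listed starts. The nearest CEBPG peak lay 72.1 kb from the outermost Zeb2 start (score 52.33), 46.8 kb from the Snai1 start (130.9), 6.5 kb from the Twist1 start (41.76), 22.2 kb from the Twist2 start (89.99) and 21.1 kb from the Prrx1 start (1084.31). The nearest ATF4 peak lay between 151 kb (Snai1) and 495 kb (Prrx1) from these starts. The 250 bases before the start are shown for 3 genes whose promoters held a match to a motif searched, as sequence without a peak.
Zeb2, chr2:45117443-45117692, minus strand: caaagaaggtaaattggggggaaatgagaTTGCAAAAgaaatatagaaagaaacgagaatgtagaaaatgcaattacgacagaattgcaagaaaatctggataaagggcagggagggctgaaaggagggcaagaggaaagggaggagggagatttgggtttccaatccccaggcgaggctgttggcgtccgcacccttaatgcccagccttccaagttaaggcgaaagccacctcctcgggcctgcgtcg
Twist2, chr1:91801211-91801460, plus strand: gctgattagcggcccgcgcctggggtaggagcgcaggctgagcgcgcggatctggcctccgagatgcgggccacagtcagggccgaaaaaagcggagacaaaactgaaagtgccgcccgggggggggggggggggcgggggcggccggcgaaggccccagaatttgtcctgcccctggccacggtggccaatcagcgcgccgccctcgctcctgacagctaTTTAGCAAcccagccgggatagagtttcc
Snai1, chr2:167537945-167538194, plus strand: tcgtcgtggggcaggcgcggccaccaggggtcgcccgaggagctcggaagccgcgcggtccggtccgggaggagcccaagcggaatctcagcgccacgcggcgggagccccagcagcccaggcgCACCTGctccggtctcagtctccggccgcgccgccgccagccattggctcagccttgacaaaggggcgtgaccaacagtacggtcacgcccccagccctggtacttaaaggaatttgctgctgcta
In Zeb2 and Twist2 the capitals mark a match to TTGCNNAA, the loose C/EBP palindrome, on the strand printed for Zeb2 and on the opposite strand for Twist2. In Snai1 they mark CACCTG, the reverse complement of CAGGTG, which is the E-box that ZEB and SNAI proteins prefer.

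Motifs were searched on both strands over all 300 bases of each promoter. The composite C/EBP-ATF element TGATGNAA, at which CEBPG and ATF4 can bind as a pair, was in 0 of the 8 promoters, and in 3.97% of all 32851 listed promoters. Its form TGATGCAA, a subset of these matches, was in 0 of 8 and in 0.895% of all promoters. The loose palindrome TTGCNNAA was in 2 of 8 and in 10.8% of all promoters. Twist2 held a second match within the 50 bases after its start. The strict palindrome TTGCGCAA (0.183% of all promoters) and the same palindrome with an A and a T as flanks (0.588%), both of which are also matches to the loose form, were in 0 of 8, as were TGACGTCA (1.79%) and TGACGTAA (0.499%). The AP-1 site TGANTCA was in 1 of 8, the innermost Zeb2 promoter with 2 matches, and in 7.81% of all. The general E-box CANNTG was in the Snai1 promoter alone, and in 72.3% of all promoters. That match is also the CAGGTG match, a form held by 20.2% of all promoters. The 8 promoters ranged in GC content from 47.7 to 70.0%, around a median of 52.7% for all promoters. Such matches are letters in a window, and the sequence beneath the peaks themselves was not used here.

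Each peak carries a score that the authors' peak caller assigned, which starts at 40 in both lists and allows ranking within a list only. Of the 92 CEBPG peaks, 52 scored under 50, 20 scored 50 to 100 and 20 scored 100 or more. Scores of 100 or more thus made up 21.7% of the peaks around the 7 genes, against 11.7% of the whole list, with a median score of 48.54 around the 7 genes and 47.24 in the whole list. A CEBPG peak in the window was present for 7 of 7 genes, and for 96.1% of all protein-coding genes. The 6 ATF4 peaks scored 41.46 (Snai2), 48.42 (Zeb2), 53.95 (Zeb1), 58.58 (Twist2), 58.65 (Twist1) and 282.46 (Snai1), and the Prrx1 window held none. An ATF4 peak in the window was thus present for 6 of 7 genes, and for 48.2% of the 21887 protein-coding genes. None of the 6 lay inside one of the 7 genes or within 5 kb of an end. The corresponding shares of all protein-coding genes were 3.94% inside the span and 2.04% within 5 kb.

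**Figure D1:**
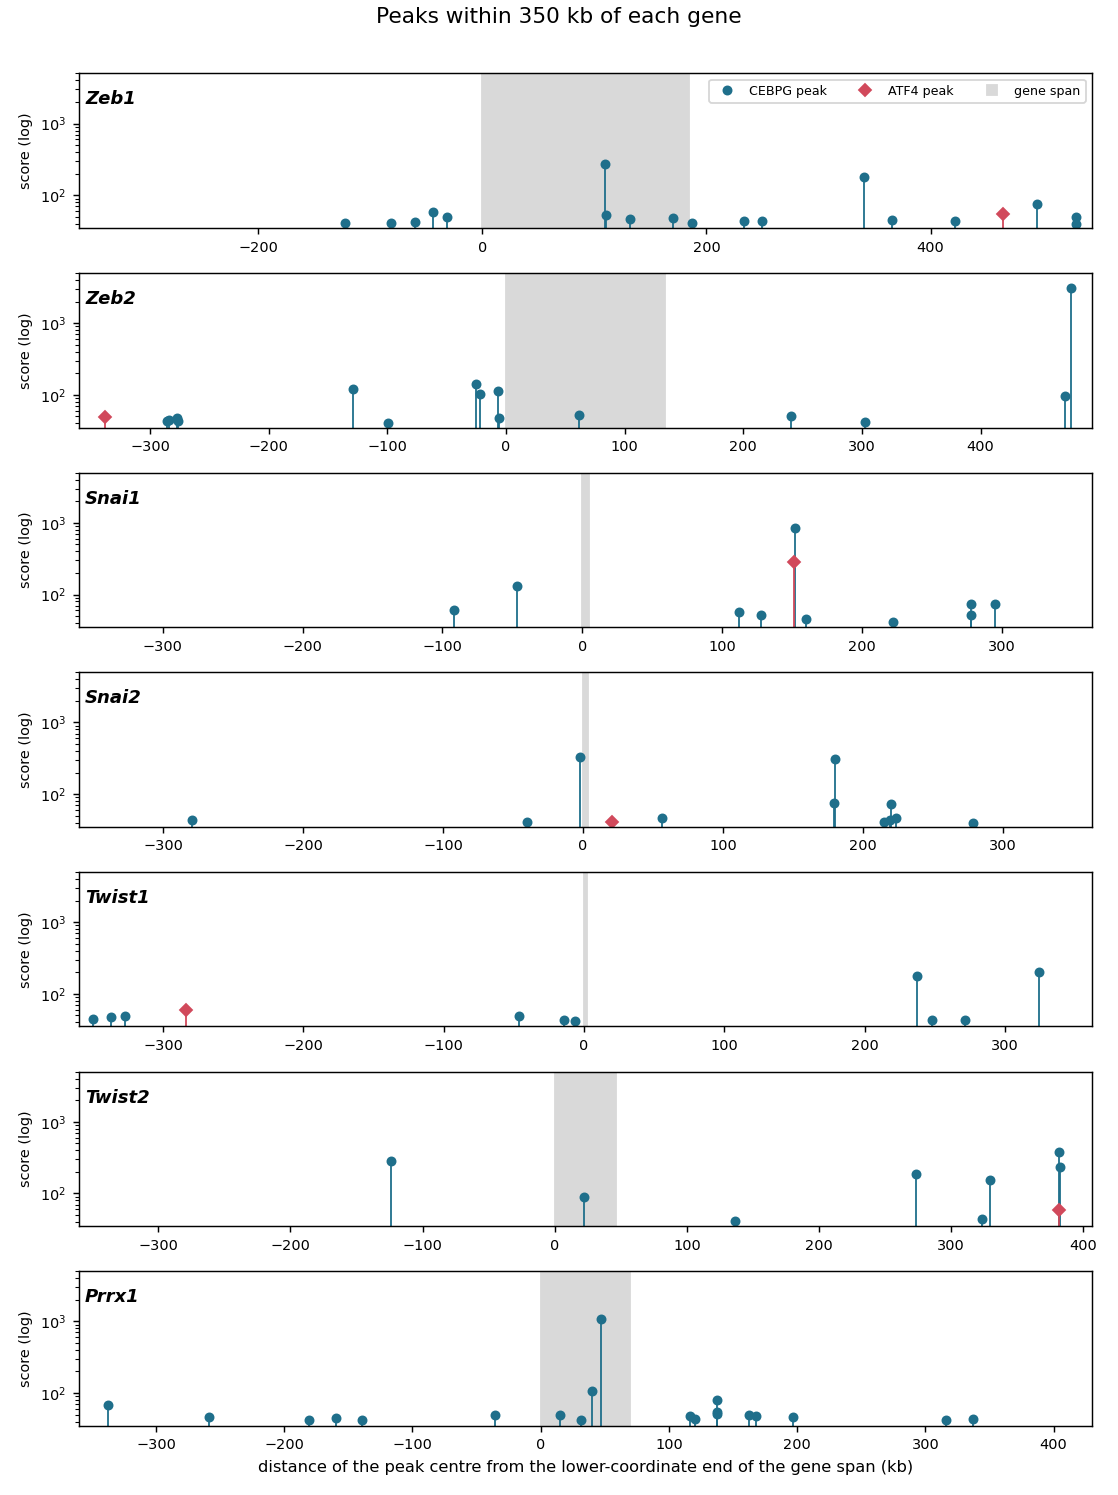
Peaks around each of the 7 genes. The horizontal axis is the distance of the peak centre from the lower-coordinate end of the gene span in kb, the vertical axis the authors' score on a log scale, the grey area the gene span, circles CEBPG peaks and diamonds ATF4 peaks. The CEBPG peak of 3100 stands far to the right of Zeb2 and that of 1084.31 inside Prrx1, while the ATF4 diamonds lie outside the grey spans.

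CEBPG and ATF4 peaks coincided at 1 place in these windows. It lay inside Hdac4, 335 kb beyond the higher-coordinate end of Twist2, with a CEBPG score of 377.26 (chr1:92183030-92183489) and an ATF4 score of 58.58 (chr1:92183200-92183397). The share of CEBPG peaks on an ATF4 peak was 1 of 92, or 1.09% (95% Wilson interval 0.192 to 5.9%, counting error only), against 1.58% of the whole CEBPG list. The interval takes the 92 peaks as independent, although 11 of them lay less than 100 bp from another. An overlapping pair was present in the window of 1 of 7 genes and in that of 13.6% of all protein-coding genes. At Cebpb, in the Snai1 window, the 2 factors had neighbouring peaks with 118 bp between their edges. By score class the pair at Hdac4 was 1 of 7 peaks of 200 to 500, a class in which 6.82% of the whole list lay on an ATF4 peak. Both CEBPG peaks of 1000 or more lay apart from ATF4 peaks. In the whole list 62.5% of the 296 peaks of that height coincided with an ATF4 peak, and 111 did not.

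The highest of the 92 CEBPG scores was found at Zeb2. The Zeb2 span covers chr2:44983512-45117442 on the minus strand, and its window held 15 CEBPG peaks. The peak of 3100 covered chr2:45459012-45459987, 342 kb upstream of the outermost start. It was 976 bp wide, the widest of the 38 CEBPG peaks that share this score (597 to 976 bp, median 826.5). Of those 38, 36 lay on an ATF4 peak, and this was 1 of the 2 that did not. The nearest ATF4 peak was 814 kb away. No protein-coding gene lies nearer than Zeb2, and on that side the next protein-coding gene begins 3700 kb beyond the end of Zeb2. The nearest annotated gene of any kind was Gm13479, 20.7 kb away. Of the 296 CEBPG peaks of 1000 or more, 19 were centred more than 300 kb from every protein-coding gene.

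The other Zeb2 peaks were far lower. The next highest score in the window was 141.4. A peak of 97.98 lay in the same stretch without protein-coding genes, 338 kb upstream of Zeb2 and 16.1 kb from Gm13479. The remaining upstream peaks scored 50.32 and 41.31, at 106 kb and 169 kb. Among annotated genes of any kind, Vis1 was nearest to both, at 15.2 kb and 3.11 kb. Downstream of the gene, between Zeb2 and the neighbouring glycosyltransferase-like gene Gtdc1, lay a group of 4 peaks. Their scores were 141.4 at 25.6 kb, 104.23 at 22.1 kb, 113.53 at 6.87 kb and 47.7 at 6.17 kb from the end of the span. Inside the span there was 1 low peak, of 52.33, which lay 65 kb from the nearest listed start. The other 6 CEBPG peaks were centred in Gtdc1, the highest at 121.7 and the rest between 40.69 and 47.68. The ATF4 peak of the window (48.42) was also in Gtdc1, 338 kb from Zeb2.

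Zeb1, the paralogue of Zeb2, held its highest peak inside the gene. The span lies on chromosome 18 from 5591327 to 5775468 and its window held 18 CEBPG peaks, 12 of them with Zeb1 as the nearest protein-coding gene. The peak at 5700369 to 5700813 scored 270.58 and had a smaller neighbour of 52.72 at 5701465 to 5701600. The other 2 peaks inside Zeb1 scored 46.39 and 48.5. A peak of 41.6 lay 2.72 kb beyond the higher-coordinate end, and 5 peaks on the lower-coordinate side scored 40.73 to 58.13. The non-coding gene Gm10125 lay nearer than Zeb1 to these 5, and Gm34740 lay nearer to a peak of 43.07 on the other side. The second-highest peak of the window (181.0) lay between Zeb1 and Arhgap12. At 92.4 kb, Arhgap12 was nearer to it than Zeb1, at 157 kb. The ATF4 peak (53.95) was centred in Arhgap12, 281 kb from Zeb1, with 30.2 kb between it and the nearest CEBPG peak. That CEBPG peak scored 76.45, the third-highest of the window, and was also centred in Arhgap12.

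Snai1 and Snai2 are short genes with different surroundings. Snai1 covers chr2:167538195-167542814 and had no CEBPG peak inside it or within 46.9 kb. None of the 10 CEBPG peaks of its window had Snai1 as the nearest protein-coding gene, and 9 other protein-coding genes overlap that window. The highest, 845.58 (chr2:167690007-167690416), lay in Cebpb, the gene of the CEBPG relative C/EBP beta, 147 kb downstream of Snai1. The ATF4 peak of 282.46, the highest of the 6, lay in Cebpb as well (chr2:167689575-167689889). The second-highest CEBPG peak (130.9) lay in Spata2, 46.9 kb upstream, and the other 8 scored 41.99 to 73.09.

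Snai2 carried the peak nearest to any of the 7 genes from outside. Snai2 covers chr16:14705852-14709395, and a CEBPG peak of 327.1 lay at chr16:14703753-14704158, centred 1.9 kb beyond the lower-coordinate end. It was the highest of the 11 CEBPG peaks of that window. The second, 304.73, had a flanking peak of 74.85 at 39 bp and lay 176 kb from Snai2, with Efcab1 nearer at 20.7 kb. A peak of 72.32 was centred inside Efcab1, and the other 7 scored 40.15 to 46.85. Among these 7, the peaks of 40.41, 43.68 and 46.53 were also centred in Efcab1. Of the 7, only the peak of 46.85 had Snai2 as its nearest protein-coding gene. Snai2 was also nearest to the peak of 327.1. The ATF4 peak of the Snai2 window (41.46, chr16:14726514-14726620) was the only ATF4 peak of the 6 whose nearest protein-coding gene was the factor gene. It was centred 17.2 kb from Snai2 and 22.4 kb from the edge of the CEBPG peak of 327.1.

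The highest CEBPG peak of each Twist window lay in a neighbouring histone deacetylase gene. Twist1 covers chr12:33957671-33959831, and upstream of it lay 6 CEBPG peaks with scores of 41.76 to 48.95. The nearest was 6.57 kb from the gene. Twistnb was nearer than Twist1 to those of 44.95, 46.85 and 48.95. Ferd3l, at 17.2 kb, was nearer than Twist1, at 46.4 kb, to that of 48.58. The highest scores of the window, 202.07 at 322 kb and 176.97 at 235 kb, lay downstream inside Hdac9, where 2 more peaks scored 43.08 and 42.9. Hdac9 is known to contain enhancers that act on Twist1. The ATF4 peak (58.65) lay 284 kb upstream and outside protein-coding genes, 235 kb from Twistnb, the nearest.

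Twist2 covers chr1:91801461-91848034 and had the fewest CEBPG peaks, 8, but 5 of these scored 100 or more. A peak of 89.99 (chr1:91823658-91823969) lay inside Twist2, 22.4 kb from its start, where the long non-coding gene Gm46117 also lies. Upstream, a peak of 281.31 lay 124 kb from Twist2, and Asb1 was slightly nearer at 118 kb. The other 6 were centred in Hdac4, a second histone deacetylase gene, with scores of 41.3 to 377.26. The peak on the ATF4 site (377.26) had a neighbour of 232.65 at 7 bp, which did not reach the ATF4 peak.

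Prrx1 had the most CEBPG peaks and no ATF4 peak. Its span is chr1:163245119-163315145 on the minus strand, and its window held 20 CEBPG peaks. The highest, 1084.31 (chr1:163291877-163292537, 661 bp wide), lay inside the gene 21.4 kb from the listed start. The second, 107.93, was also inside the gene at 28.3 kb from the start. The other 2 peaks inside Prrx1 scored 49.47 and 42.54. The non-coding gene Gm20471 also lies at the peak of 1084.31, and LOC108167740 at that of 107.93. Outside the span the 16 peaks scored 41.72 to 80.97. The top of these, 80.97, was the middle of 3 peaks with gaps of 21 and 2 bp, centred 2.23 kb from Gorab, a Golgi protein gene. The nearest ATF4 peak to the peak of 1084.31 was 473 kb away. A CEBPG peak of 1000 or more inside the span occurred in 0.617% of all protein-coding genes.

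**Figure D2:**
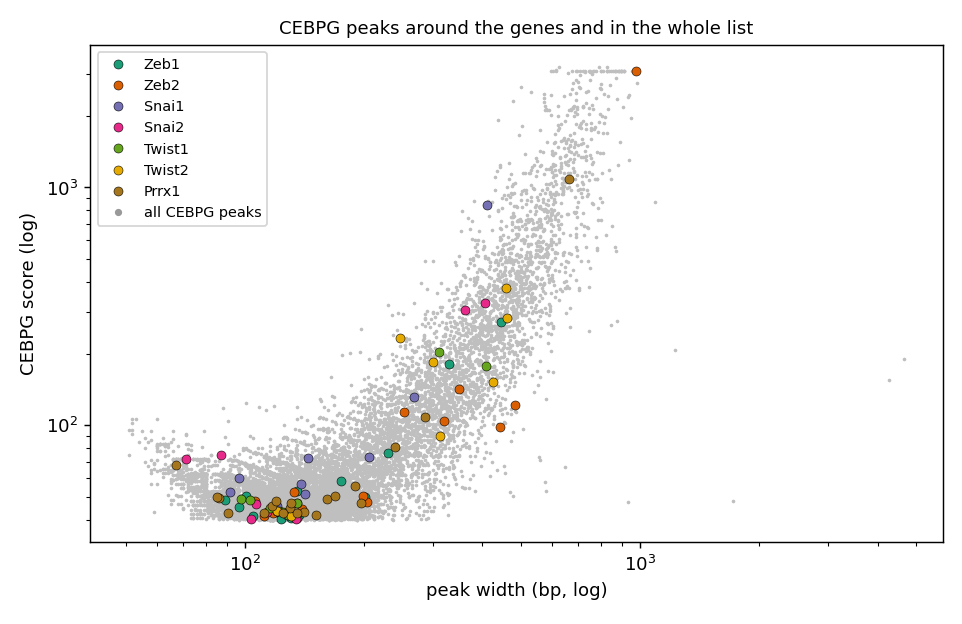
CEBPG score against peak width in bp, both on log axes, for the whole list (grey) and for the peaks around the 7 genes (coloured by gene). The Zeb2 peak of 3100 sits at the wide end of the row of tied scores, the Prrx1 peak of 1084.31 at 661 bp, and the Cebpb peak of the Snai1 window, 845.58, is narrow for its score at 410 bp.

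Position was compared across the genes. Of the 92 CEBPG peaks, 10 overlapped one of the spans, 2 lay outside within 5 kb, 14 at 5 to 50 kb, 13 at 50 to 100 kb, 17 at 100 to 200 kb and 36 farther. Zeb1 and Prrx1 had 4 peaks each inside and Zeb2 and Twist2 had 1 each. A CEBPG peak inside the span was thus found for 4 of 7 genes, and for 23.4% of all protein-coding genes. Those 4 genes have the long spans, 46.6 to 184 kb. Among all genes of 40 kb or more the share was 57.4%, and among genes under 5 kb, the size of Snai1, Snai2 and Twist1, it was 2.64%. The part that span length plays in the count was not tested beyond these shares, whose limits were set after the values were seen. Within 5 kb of an end, 2 of 7 genes (Zeb1 and Snai2) had a CEBPG peak, against 16.5% of all genes. For the 5 genes with a listed strand, 23 CEBPG peaks lay upstream and 34 downstream, which was not set beside all genes.

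Another gene was often nearer than the factor gene itself. Of the 92 CEBPG peaks, 31 had one of the 7 as the nearest protein-coding gene (33.7%) and 61 did not. Of these 61, 30 were centred inside that other gene. For the highest CEBPG peak of each window, the factor gene was nearest at Zeb1, Zeb2, Snai2 and Prrx1, while Cebpb, Hdac9 and Hdac4 were nearest at Snai1, Twist1 and Twist2. Of all protein-coding genes with a CEBPG peak in the window, 12.2% were nearest to its highest. Zeb2 was chosen for being nearest to its highest peak, so its place in this count was set by the choice. For ATF4, the factor gene was nearest at 1 of 6 peaks. Apart from the 12.2%, these counts have no share for the windows of all protein-coding genes beside them. None of the counts, with or without such a share, is read as a trait of the 7 genes.

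Each of the 7 windows held more CEBPG peaks than the median window of all protein-coding genes, by margins that differed between the genes. The genes were chosen with these peak lists in view, so this is a description. The windows held 8 (Twist2) to 20 (Prrx1) peaks, with a median of 11. For all protein-coding genes the median was 6, with quartiles of 4 and 9. Per Mb of window, the 7 genes ranged from 10.7 to 26.0 with a median of 15.6, against a median of 8.42 for all genes. A density as high as that of Prrx1 was reached by 0.343% of all genes, that of Zeb1 by 2.46% and that of Zeb2 by 5.47%. For Snai2, Snai1 and Twist1 the shares were 10.1, 14.6 and 14.1%, and for Twist2 34.0%. By the highest CEBPG score, the order was Zeb2, Prrx1 (1084.31), Snai1 (845.58), Twist2 (377.26), Snai2 (327.1), Zeb1 (270.58) and Twist1 (202.07). Zeb2 was chosen for its peak of 3100, so its place here and in the shares of high peaks below follows from that choice. That peak lay 342 kb from the gene, near the limit of the window. A peak of 3100 or more lay in the window of 1.57% of all genes, and one of 1000 or more, as in 2 of the 7 windows, in that of 10.1%. For the other genes, a highest score at least as high was reached in the windows of 12.5% of all genes (Snai1), 25.4% (Twist2), 28.5% (Snai2), 32.2% (Zeb1) and 39.4% (Twist1). The median highest score was 377.26 for the 7 genes, against a median of 131.93 and an upper quartile of 402 for the genes with a CEBPG peak in the window. Neighbouring genes share peaks, so these shares are not over independent windows. The windows also held 1 (Zeb2) to 9 (Snai1) other protein-coding genes.

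**Figure D3:**
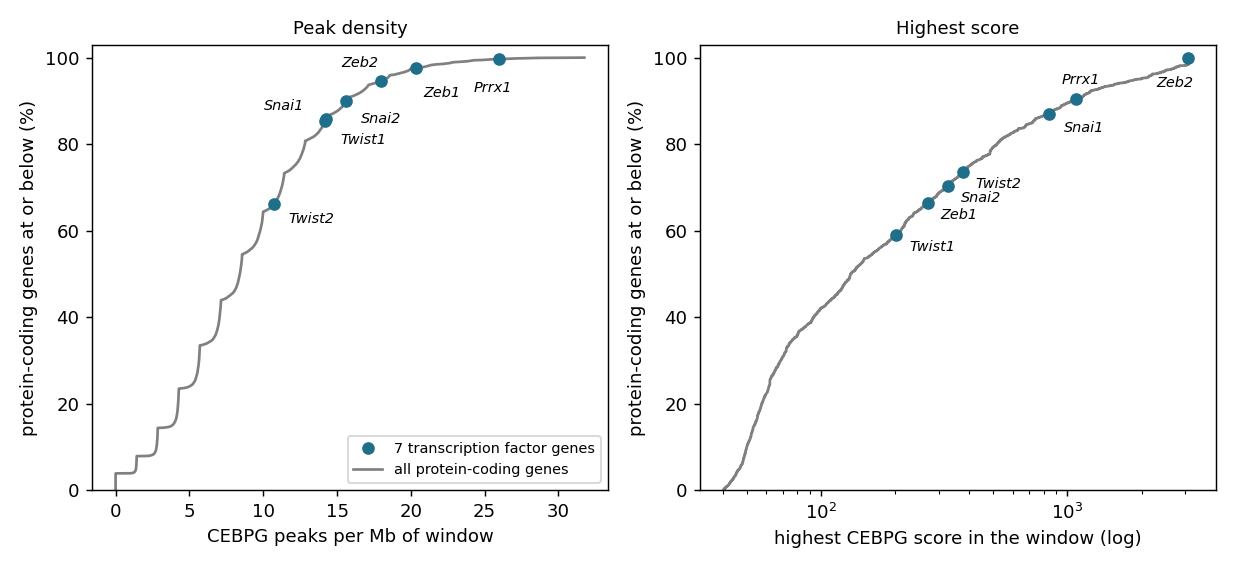
Cumulative share of protein-coding genes in percent (grey line) by CEBPG peaks per Mb of window (left) and by the highest CEBPG score of the window on a log axis (right, genes with a CEBPG peak in the window), with the 7 transcription factor genes as points. Densities run from 10.7 for Twist2 to 26.0 for Prrx1, and the highest scores from 202.07 for Twist1 to 3100 for Zeb2.

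The window limit left some peaks just outside. The farthest CEBPG peak counted had its edge 349972 bp from Twist1 (44.95), and the nearest one not counted lay 354638 bp from Prrx1 (42.1). At Zeb1, a CEBPG peak of 424.96 and an overlapping ATF4 peak of 73.19 lay just outside, both 362 kb from the gene. At Zeb2 the peak of 3100 was itself the outermost counted. The nearest CEBPG peak not counted lay on the other side of the gene, 443 kb downstream (41.99).

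The wider circle of mesenchymal and epithelial genes was described with 4 lists, by peaks in the span or within 5 kb. Of the 7 factor genes, 5 had a CEBPG peak there and 0 an ATF4 peak, and the median top CEBPG score of the 5 was 270.58. The shares were 29.9% for CEBPG and 4.94% for ATF4 over the whole set of protein-coding genes, with a median top CEBPG score of 52.76 among those with one. Of 24 related transcription factor genes, 6 (25%) had a CEBPG peak and 0 an ATF4 peak. The median top CEBPG score of these 6 was 241.19, near that of the factor genes. The top scores were those of Runx2, the osteoblast factor (870.32), Etv5, an ETS factor (571.05), Osr1, a factor of kidney and limb mesenchyme (246.33), and Foxc2, a forkhead factor (236.05). Of 12 partners and co-repressors, 8 (66.7%) had a CEBPG peak, with a median top score of 48.28. Id1 and Id2, inhibitors of basic helix-loop-helix factors, had 236.22 and 76.07, and the others, with Sin3a next at 49.69, were lower. Tcf12, a dimer partner of TWIST proteins, had no CEBPG peak and the only ATF4 peak of that list (43.21).

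Of 19 epithelial genes, 6 (31.6%) had a CEBPG peak, with a median top score of 47.6, and 0 an ATF4 peak. Cdh3, encoding P-cadherin, had 722.05, and Tjp3, Grhl2 and Tjp1 had 68.95, 48.88 and 46.31. Cdh1 had no peak of either factor in its span or within 5 kb, and wider windows were not counted for these lists. Of 20 mesenchymal genes, 15 (75%) had a CEBPG peak, with a median top score of 55.86, and 3 (15.0%) an ATF4 peak. Fbn1, the gene of the microfibril protein fibrillin, had 1012.6 for CEBPG with an overlapping ATF4 peak of 53.29. Col1a2, a type I collagen gene, had a low overlapping pair (43.05 for CEBPG, 50.52 for ATF4), and Postn, encoding periostin, had both (44.21 and 40.08) without overlap. Fn1 (156.49), S100a4 (131.07) and Col1a1 (117.85) followed Fbn1 for CEBPG. The median span was longest for the 7 factor genes, at 46.6 kb. It was 29.0 kb in the mesenchymal list and 27.4 kb among partners. In the epithelial list it was 15.2 kb and among related factors 5.97 kb, against 17.2 kb for all genes. How far span length goes with these counts was not tested.

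**Figure D4:**
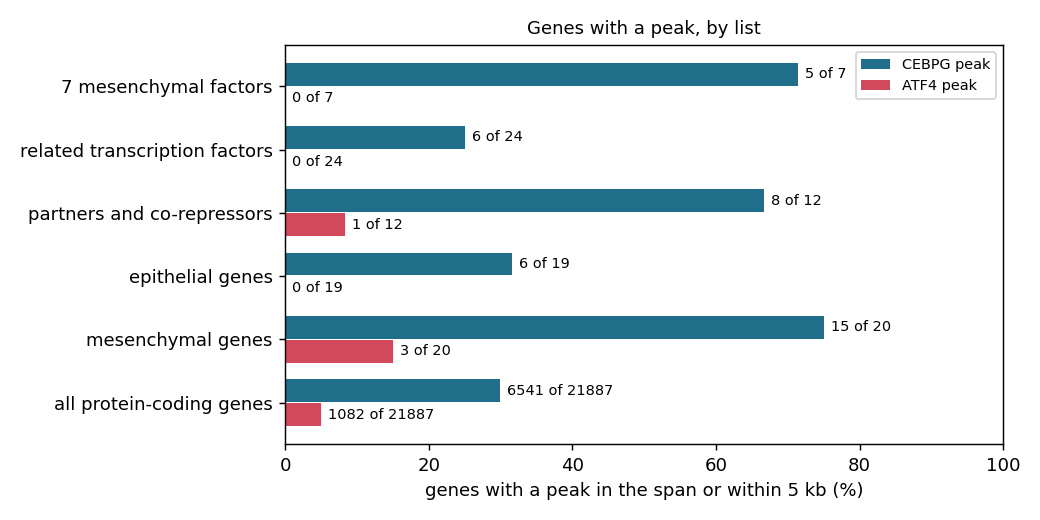
Share of genes in percent with a CEBPG peak (upper bar) or an ATF4 peak (lower bar) in the span or within 5 kb of it, by gene list, with counts beside the bars. The mesenchymal list (15 of 20) and the 7 factor genes (5 of 7) have the longest CEBPG bars, and all protein-coding genes, at 6541 of 21887, stand at the bottom.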

How the data were processed

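The 2 peak lists used hold 1 library each, each deposited as a BED file of positions and peak names. Per the submitters' processing notes, Trimmomatic, BWA, MACS 1.4.2 and HOMER were used with build mm10. Settings, and whether the GFP library served as background, are not given in the sources used here. The peak names in the deposited files end in the authors' score, which was read from the end of the name and compared within a list only. Reads were not used, so depth is unknown, and lists of unlike length cannot be corrected for it.

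Positions were written 1-based. Genes came from the RefSeq table of GRCm38.p6 (21887 protein-coding genes on nuclear chromosomes), and strand, starts and promoter sequences from the RefSeq promoter table of the same build, which matched 5 of the 7 genes. A peak overlapping the span or the 350 kb on either side was counted, peaks sharing at least 1 bp were called overlapping, and distances run from the peak centre to the gene span unless an edge or a start is named. Counting was checked on simulated peaks. No test was run, since there is 1 library per antibody and the genes and lists were chosen with earlier results of these data known. Counts of genes stand beside the same count over all protein-coding genes. Counts of window peaks by distance, strand or nearest gene do not. Named peaks are those inside a span or within 5 kb of it, the 3 highest CEBPG and the highest ATF4 peak of each window, and overlapping pairs. At Snai1 and Twist1 the third-highest CEBPG score is given only as the top of a range. Other peaks and the peaks just outside the windows are named as well, and were chosen after their values were seen. From each list up to 4 genes with the highest CEBPG score were named, plus those with an ATF4 peak, and Cdh1 after its values were seen. Python 3.11.15, pandas 2.3.3, NumPy 2.4.6, SciPy 1.17.1 and matplotlib 3.10.9 were used. Sequence under the peaks was not used here, so the motif search covers promoters only.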

Additional observations from a re-analysis of the deposited data

How the results depend on the processing

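Of 37 alternative settings over 8 counts and shares, 18 left the value unchanged (within 1.5 times, or within the 24.9 to 43.8% interval of the share nearest to the factor gene) and 19 moved it. A window of 100 kb or 50 kb on either side left 39 or 26 CEBPG peaks, 1 ATF4 peak under either and 0 overlapping pairs. Scores of at least 50 left 40 CEBPG peaks, and 1 gene with such a peak at 5 kb or less from an end. Scores of at least 100 left 20 CEBPG peaks, 1 ATF4 peak, 0 overlapping pairs, 2 genes with a CEBPG peak inside the span and 1 at 5 kb or less from an end. Asking for 50% of both peaks to overlap left 0 pairs. Within 1 kb of an end 0 genes had a CEBPG peak, and within 20 kb 5 genes had one and 1 gene (Snai2) had an ATF4 peak. With non-coding genes and pseudogenes counted as neighbours, the factor gene was nearest to the highest CEBPG peak at 2 of 7 genes and to 16.3% of CEBPG peaks. Counting peaks less than 100 bp apart as 1, chosen after seeing the data like the wider span and the 100 kb window for the highest peak, gave 86 CEBPG peaks. A narrower window or a higher score floor can only keep or lower a count of peaks. The nearest-gene values depended on whether non-coding genes and pseudogenes were counted as neighbours, and the count of pairs on the overlap rule. The score floor of the lists and the unknown depth limit any statement that a peak is absent. No paired analysis was possible because each antibody has 1 library.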
